A study of Mus musculus with 8 samples.

Results

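Levels of 32 neuron genes were measured in palatal shelf RNA of 8 mouse embryos, all at embryonic day 13.5. They were picked by symbol as genes used by most neurons and by the neurons of sensory ganglia, and each symbol was matched to an Ensembl identifier. All 32 were among the 19083 genes of the deposited table. These shelves grow from the upper jaw on either side and fuse to make the secondary palate. The study compared shelves with and without Pax9, a transcription factor of the craniofacial mesenchyme. By the genotype labels, 4 embryos were Pax9-/- (null), 2 were Pax9+/+ (wild type) and 2 were Pax9+/- (heterozygote), and the wild types and heterozygotes together are called the controls. All embryos carried the strain label C57BL/6 and a treatment label of not applicable, and each palate was lysed by itself. The labels do not say which embryos shared a litter or which part of Pax9 is deleted, and nothing beyond separate embryos is known of the replicates, so a p-value here speaks of the spread among 8 embryos only.

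Sensory nerves of the palate grow in from the trigeminal ganglion, whose cell bodies lie outside the shelves and whose axons reach into them. A neuron's messenger RNA is mostly held in its cell body, with a smaller pool in the axon, so a dissection can hold neuron RNA through cell bodies, axons or both. Pan-neuronal genes encode the axon skeleton (neurofilaments, neuronal tubulin and its binding proteins), the RNA-binding Hu proteins and the release machinery. Sensory ganglion neurons add transcription factors such as Pou4f1 and channels such as Scn9a. In tissue RNA, fewer cells of a type and less RNA per cell cannot be told apart.

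The promoter windows of Nhlh1, Pou4f1, Prph and Uchl1 are shown because these genes span the range of behaviours described below, from the neuronal transcription factors with very low levels in most libraries to a gene present throughout. Each is the 250 bases before the transcription start given by RefSeq on GRCm38.p6, written 5′ to 3′ on the gene's strand, and capitals mark every match to the E-box CANNTG, which reads the same on both strands.
Nhlh1, chr1:172057597-172057846, minus strand: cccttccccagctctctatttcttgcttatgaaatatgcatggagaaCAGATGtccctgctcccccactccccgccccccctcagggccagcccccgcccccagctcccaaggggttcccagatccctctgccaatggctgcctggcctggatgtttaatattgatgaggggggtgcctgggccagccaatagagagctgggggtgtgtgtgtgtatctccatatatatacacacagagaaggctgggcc
Pou4f1, chr14:104468000-104468249, minus strand: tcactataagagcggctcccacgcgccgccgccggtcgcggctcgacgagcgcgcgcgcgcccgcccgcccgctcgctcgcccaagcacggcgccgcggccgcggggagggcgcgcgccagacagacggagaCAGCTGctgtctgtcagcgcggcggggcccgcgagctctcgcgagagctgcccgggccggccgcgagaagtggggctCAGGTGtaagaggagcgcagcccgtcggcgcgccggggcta
Prph, chr15:99054924-99055173, plus strand: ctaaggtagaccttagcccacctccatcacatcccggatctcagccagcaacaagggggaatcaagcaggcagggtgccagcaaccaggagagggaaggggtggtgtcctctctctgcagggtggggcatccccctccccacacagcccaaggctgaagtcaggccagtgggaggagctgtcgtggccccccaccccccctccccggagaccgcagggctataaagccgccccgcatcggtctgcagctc
Uchl1, chr5:66675871-66676120, plus strand: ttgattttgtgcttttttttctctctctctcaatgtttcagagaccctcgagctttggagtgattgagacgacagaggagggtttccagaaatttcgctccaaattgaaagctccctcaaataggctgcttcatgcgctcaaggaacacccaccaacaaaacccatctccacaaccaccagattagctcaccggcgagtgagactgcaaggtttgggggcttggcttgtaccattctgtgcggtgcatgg
The Nhlh1 window held 1 E-box and the Pou4f1 window held 2, while the Prph and Uchl1 windows held none. A promoter window was given for 23 of the 32 genes, and 18 of them (78.3%) held at least 1 CANNTG. The same letters were found for 69.3% of all 27025 genes with a window. The form CAGATG was found in 7 of the 23 and for 16.3% of all these genes. The TATA box TATAAA was found in 3 of the 23, Prph among them, and for 14.3% of all these genes. These matches describe letters only.

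The table holds FPKM, that is reads scaled by gene length and by library depth, so that levels of different genes can be set side by side. Between 37069101 and 51210254 reads were assigned to genes per library. Pax9 itself read 8.49, 7.19, 9.81 and 10.3 FPKM in null libraries 1 to 4. It read 35.8 and 27.2 FPKM in wild types 1 and 2, and 30.1 and 26.2 FPKM in heterozygotes 1 and 2. Every null library thus lay below every control. The markers of palatal mesenchyme summed to between 1310 and 1560 FPKM in all 8 libraries and all 17 were expressed highly enough to be tested. In the order of the table's columns, null 1, wild type 1, null 2 and wild type 2 come first, and null 3, heterozygote 1, null 4 and heterozygote 2 come last. The first and last 4 columns differed widely across all genes, and among controls this split cannot be told apart from wild type against heterozygote. Null 3 and heterozygote 2, both in the last 4, stood apart from the other libraries in the neuron genes. Some of the differences and calls that rest on them are also given with 1 or both of them left out.

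Most of the neuron genes were high in the same pair of embryos, 1 null and 1 heterozygote. Null 3 and heterozygote 2 were above each of the other 6 libraries in 28 of the 32 genes, an order seen in 7.03% of the 19055 genes with any reads. The 4 genes without this order were Ntrk3, Scg2, Celf4 and L1cam. Wild type 2 came next: in 25 of the 32 genes these 3 libraries were above the other 5, against 3.16% of all genes. Heterozygote 2 was the highest library in 20 genes, null 3 in 9, wild type 2 in 2 and null 1 in 1. Wild type 1 was the lowest library in 15 genes and null 4 in 9. The highest level was at least 10 times the lowest in 14 genes, between 2 and 10 times in 11 and under 2 times in 6; Neurod1 had no reads in null 1, so its ratio is not defined.

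**Figure D1:**
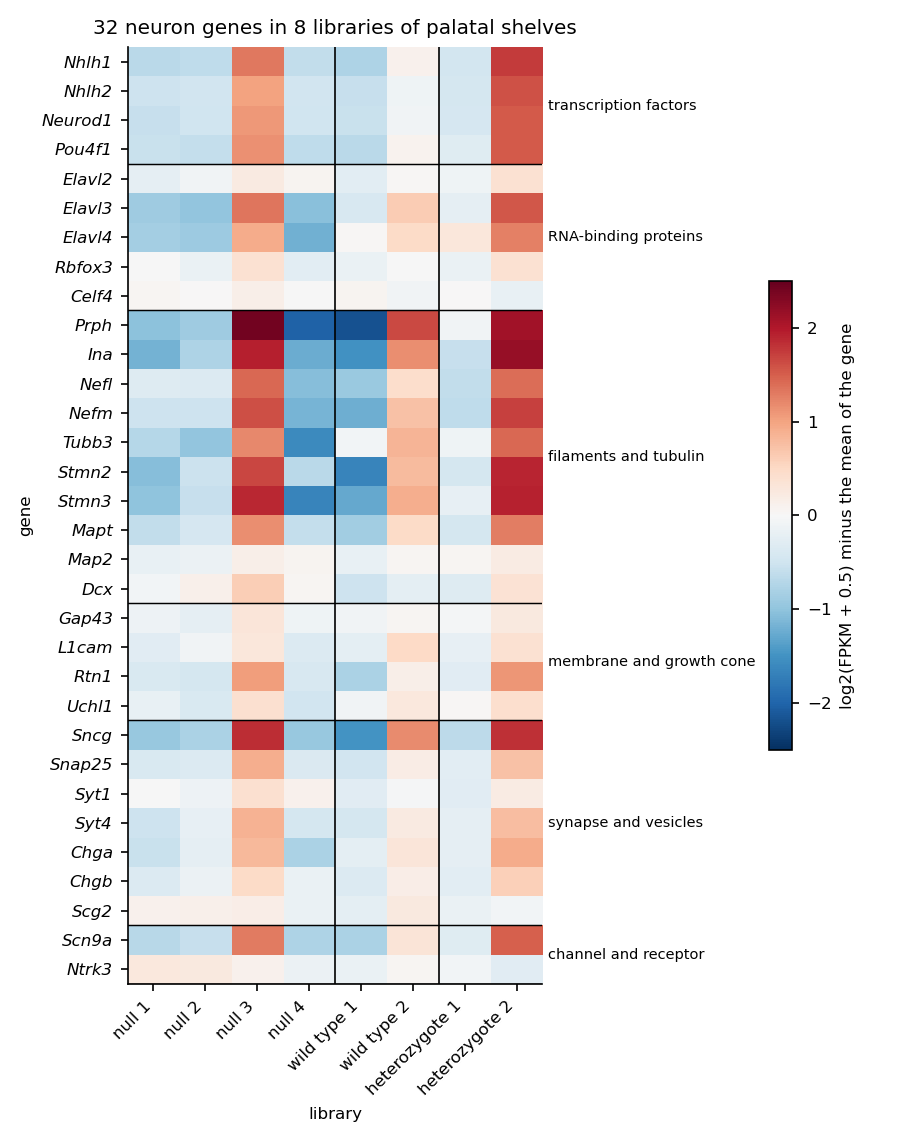
Level of each of the 32 neuron genes (vertical axis, grouped by role) in each of the 8 libraries (horizontal axis, grouped by genotype), as log2(FPKM + 0.5) minus the gene's mean over the libraries. Null 3 and heterozygote 2 hold the 2 reddest cells of 28 of the 32 genes, wild type 2 is paler red for most, and Celf4, Ntrk3 and Scg2 show little or another order.

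The transcription factors were at the bottom of the range except in the same pair of embryos. Nhlh1, a basic helix-loop-helix factor of newly formed neurons whose promoter is shown above, read 0.0498, 0.0642, 1.66 and 0.0656 FPKM in null libraries 1 to 4. It read 0.00883 and 0.436 FPKM in wild types 1 and 2, and 0.136 and 2.41 FPKM in heterozygotes 1 and 2. The value in wild type 1 rests on 1 read, and those in null 3 and heterozygote 2 on 210 and 229 reads, with 95% Poisson intervals of 1.44 to 1.90 and 2.11 to 2.75 FPKM. These intervals, which cover counting error only, are far narrower than the spread between embryos. Pou4f1, a POU-domain factor of sensory ganglion neurons, read 0.117, 0.105, 1.51 and 0.0871 FPKM in the nulls. In wild types 1 and 2 it read 0.0704 and 0.463 FPKM, and in heterozygotes 1 and 2 it read 0.237 and 2.14 FPKM. Null 3 held 14.6 times the mean of the other nulls (0.103 ± 0.0151, SD, n = 3), and heterozygote 2 held 9.05 times heterozygote 1. Neurod1, another helix-loop-helix factor of neuron differentiation, had 0 reads in null 1 against 151 in null 3. With 3 reads as the floor of null 1, Neurod1 was at least 47.9-fold higher in null 3. Nhlh2, the close relative of Nhlh1, ranged from 0.00649 FPKM in wild type 1 to 1.78 FPKM in heterozygote 2. Nhlh1, Nhlh2, Neurod1 and Pou4f1 are described here for their role; they were singled out after their values were seen.

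The RNA-binding proteins divided by the width of their range, and only Celf4 did not have null 3 and heterozygote 2 as its 2 highest libraries. Elavl3 and Elavl4, the neuronal Hu proteins that stabilise and splice messenger RNA, followed the same order as the transcription factors. Elavl3 read 0.187, 0.136, 2.70 and 0.112 FPKM in null libraries 1 to 4, 0.463 and 1.47 FPKM in wild types 1 and 2, and 0.584 and 3.23 FPKM in heterozygotes 1 and 2. Elavl4 read 0.551, 0.514, 3.10 and 0.325 FPKM in the nulls, 1.45 and 2.13 FPKM in the wild types, and 1.80 and 4.05 FPKM in the heterozygotes. Apart from null 3, each null was below every control in both genes, so that the groups overlap through 1 null embryo. Elavl2, the relative also found in germ cells, lay between 0.820 and 1.57 FPKM in all libraries. Rbfox3, the splicing factor behind the NeuN antigen, lay between 0.481 and 1.04 FPKM. Celf4 lay between 1.66 and 2.21 FPKM, with its highest value in null 3 and its lowest in heterozygote 2.

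Of the filament genes of the axon skeleton, Prph and Ina had wider ratios between libraries than Nefl and Nefm. Prph, the intermediate filament of peripheral neurons, read 1.13, 1.27, 17.2 and 0.317 FPKM in null libraries 1 to 4. In the controls it read 0.233 and 9.88 FPKM in wild types 1 and 2, and 2.62 and 13.6 FPKM in heterozygotes 1 and 2. Its highest level was 73.5 times its lowest, and high and low embryos occurred in all 3 genotypes. Ina, the filament protein alpha-internexin, read 0.430, 0.741, 7.63 and 0.391 FPKM in the nulls, 0.235 and 4.23 FPKM in the wild types, and 0.906 and 9.05 FPKM in the heterozygotes. Nefl, the light neurofilament, read 5.66, 5.63, 20.6 and 3.19 FPKM in the nulls, 3.57 and 10.03 FPKM in the wild types, and 4.55 and 19.8 FPKM in the heterozygotes. Nefm, the medium neurofilament, read 3.86, 3.88, 18.6 and 2.32 FPKM in the nulls, 2.18 and 9.93 FPKM in the wild types, and 3.55 and 20.05 FPKM in the heterozygotes. Null 3 held between 0.843 (Ina) and 1.26 (Prph) times the level of heterozygote 2 in these filament genes. The exons of Nefl and Nefm overlap on opposite strands over 32.8% and 19.2% of their length and the library kit does not mark strand, so reads there cannot be assigned to either gene; 14.1% of Ina lies over Nt5c2 in the same way.

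The microtubule genes followed. Tubb3, the neuronal beta-tubulin, read 6.51, 5.25, 25.7 and 3.29 FPKM in null libraries 1 to 4, 10.4 and 19.999 FPKM in wild types 1 and 2, and 10.1 and 30.2 FPKM in heterozygotes 1 and 2. Without null 3, each null was below every control, as for Elavl3 and Elavl4. Stmn2, a microtubule regulator of growing axons, read 2.09, 3.25, 16.7 and 2.88 FPKM in the nulls, 1.22 and 8.89 FPKM in the wild types, and 3.49 and 19.8 FPKM in the heterozygotes. Here wild type 1, not a null, was the lowest library. Stmn3, its relative, ranged from 0.261 FPKM in null 4 to 8.62 FPKM in heterozygote 2, and Mapt, the axonal protein tau, from 0.413 FPKM in wild type 1 to 3.52 FPKM in heterozygote 2. Dcx, doublecortin of migrating neurons, and Map2, the dendritic microtubule protein, moved far less. Dcx lay between 2.88 and 6.87 FPKM. Map2 read 3.41, 3.50, 4.46 and 4.15 FPKM in the nulls, 3.44 and 4.08 FPKM in the wild types, and 4.14 and 4.65 FPKM in the heterozygotes, so each of the last 4 columns was above each of the first 4.

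**Figure D2:**
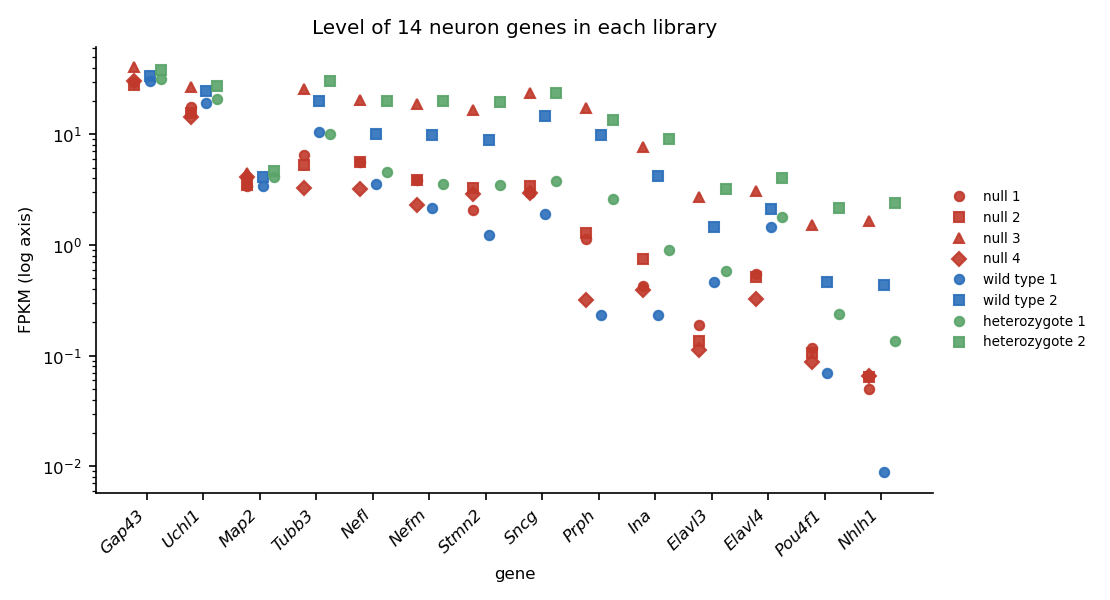
FPKM on a log axis (vertical) of 14 neuron genes (horizontal) in each library, with 1 point per library, colour for genotype and shape for replicate; points are single embryos and carry no error bar. Null 3 (red triangle), heterozygote 2 (green square) and wild type 2 (blue square) lie at the top from Tubb3 to Nhlh1, while Gap43, Uchl1 and Map2 differ by less than 2 times between the highest and lowest library.

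Gap43 and Uchl1, among the genes of membrane and growth cone, had the highest mean levels of the 32 genes and ratios under 2 between libraries. Gap43, a growth cone phosphoprotein, read 29.9, 27.8, 40.4 and 30.2 FPKM in null libraries 1 to 4, 30.4 and 33.5 FPKM in wild types 1 and 2, and 31.6 and 38.4 FPKM in heterozygotes 1 and 2. Uchl1, a ubiquitin hydrolase abundant in neurons whose promoter is shown above, read 17.8, 15.5, 26.9 and 14.5 FPKM in the nulls, 19.0 and 24.5 FPKM in the wild types, and 20.8 and 27.4 FPKM in the heterozygotes. In both, null 3, heterozygote 2 and wild type 2 were the 3 highest libraries, above a level of at least 27.8 FPKM for Gap43 and 14.5 FPKM for Uchl1 that was present in every library. For Uchl1, 18.1% of the exon bases lie over Uchl1os on the other strand. Rtn1, a reticulon of the neuronal endoplasmic reticulum, ranged from 1.13 to 5.55 FPKM. L1cam, an axonal adhesion molecule, ranged from 2.04 to 4.02 FPKM with its highest value in wild type 2.

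Of the genes of synapse and vesicles, Sncg had the highest level. Sncg, the gamma-synuclein of peripheral neurons, read 2.98, 3.40, 23.7 and 2.97 FPKM in null libraries 1 to 4, 1.89 and 14.7 FPKM in wild types 1 and 2, and 3.78 and 23.4 FPKM in heterozygotes 1 and 2. Null 3 held 7.59 times the mean of the other nulls (3.12 ± 0.248, SD, n = 3). Snap25, the membrane SNARE of transmitter release, reached 0.973 FPKM in null 3 and was 0.0577 FPKM in wild type 1. Syt1 and Syt4, calcium sensors of vesicle fusion, stayed at or below 0.991 and 1.09 FPKM, and the granins Chga, Chgb and Scg2 at or below 1.48, 0.578 and 0.348 FPKM. Of the channel and receptor genes, Scn9a, the sodium channel of pain-sensing neurons, ranged from 0.0284 FPKM in wild type 1 to 2.05 FPKM in heterozygote 2. Ntrk3, the receptor of neurotrophin 3, ranged from 0.387 FPKM in heterozygote 2 to 0.805 FPKM in null 1, which is not the order of most neuron genes.

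Null 3 and heterozygote 2 were also set against each other, gene by gene. Across the 28 genes in which they were the highest, null 3 held a median of 0.923 times the level of heterozygote 2. The ratio was lowest for Nhlh2 (0.571), Neurod1 (0.648), Nhlh1 (0.688) and Pou4f1 (0.703), the 4 transcription factors, and highest for Prph (1.26). Among the genes outside the 28 it was 1.71 for Ntrk3, 1.63 for Scg2, 1.33 for Celf4 and 0.933 for L1cam. These ratios are between 2 libraries and carry no replicate error, and other pairs were not compared in this way.

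A gene was tested where its FPKM was at least 1 in 2 or more libraries, which 13600 genes and 26 of the 32 neuron genes met; Snap25, Syt1, Syt4, Ntrk3, Scg2 and Chgb did not. Of the 26, 10 met it only through null 3 and heterozygote 2 (Elavl3, Ina, Mapt, Rbfox3, Nhlh1, Nhlh2, Neurod1, Pou4f1, Scn9a and Chga), so counts over the 26 are a description. Tests used limma on log2(FPKM + 0.5) with Benjamini-Hochberg adjustment over the 13600 genes, and a gene was called at an adjusted p under 0.05. All differences below are on that log2 scale, where changes of genes with low FPKM come out too small.

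Between null and control shelves, 0 of the 26 neuron genes were called by limma, where 57 of 13600 genes (0.419%) were, and limma's voom on recovered reads called 0 as well. The median difference of the neuron genes was -0.30, beside -0.01 over all tested genes, and 24 of the 26 were below 0. Leaving out each library in turn moved this median between -0.65 (without null 3) and 0.00 (without heterozygote 2). At an unadjusted p under 0.05 there was 1 neuron gene, beside 7.15% of all tested genes: Elavl4, with 1.12 ± 1.32 FPKM in the nulls and 2.36 ± 1.16 in the controls (SD, n = 4 each) and a difference of -1.02 (SE 0.45, limma adjusted p = 0.696). Tubb3 averaged 10.2 ± 10.4 FPKM in the nulls and 17.7 ± 9.54 in the controls, a difference of -1.05 (SE 0.57, adjusted p = 0.821). For Elavl3 the difference was -0.79 (SE 0.60) and for Prph it was -0.75 (SE 1.11). The SD over the nulls was as large as their mean or larger in each of these 4 genes. No neuron gene had all nulls below all controls, or all above, in the 32, while 3.12% of all genes with reads had the first order and 2.27% the second.

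Against each control genotype alone, no neuron gene was called and the sign of the median turned on single libraries. Against the 2 wild types, 0 of 26 neuron genes were called, beside 52 genes in all (0.382%), and the median difference was 0.05. Leaving out each library moved it between -0.50 (without wild type 1) and 0.49 (without wild type 2). Against the 2 heterozygotes, 0 of 26 were called, beside 11 genes in all (0.0809%), and the median was -0.68. This one moved between -1.67 (without heterozygote 1) and 0.10 (without heterozygote 2). At an unadjusted p under 0.05, 1 of 26 was found in each comparison, beside 11.6% and 6.95% of all tested genes. Both comparisons use the same 4 nulls. With 2 embryos per control genotype, each genotype holding 1 higher and 1 lower library, the sign of the difference changed for 21 of 26 genes against wild type, and for 11 of 26 against heterozygote, when some library was left out.

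**Figure D3:**
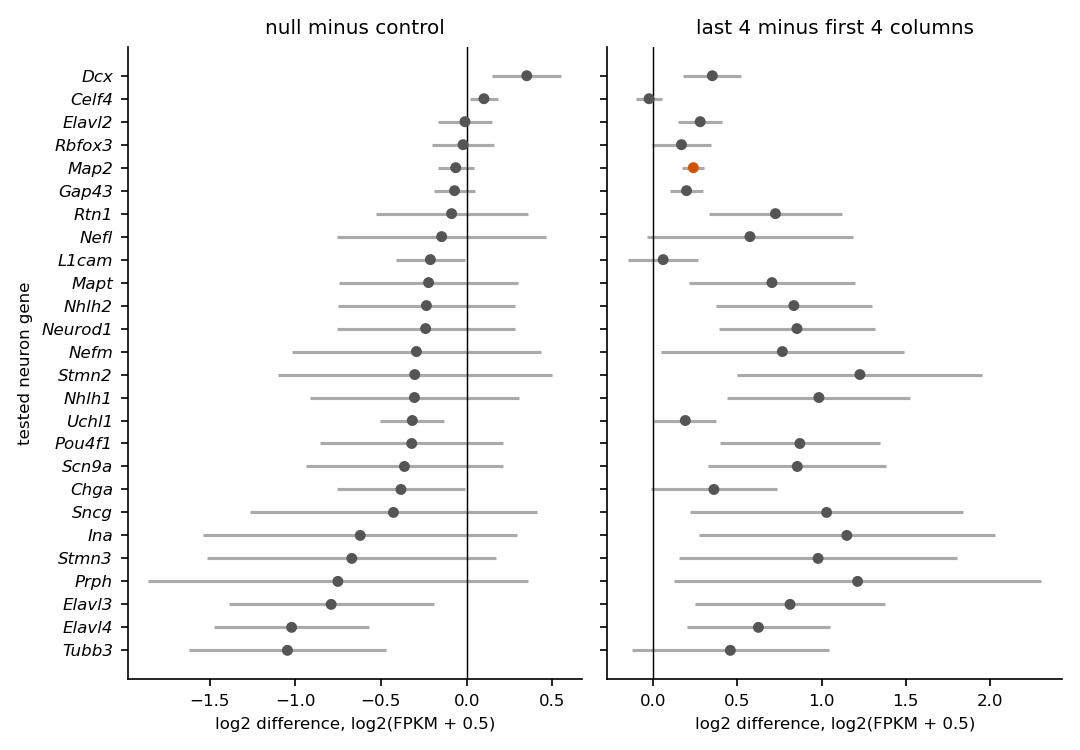
Difference on the log2(FPKM + 0.5) scale (horizontal) of each of the 26 tested neuron genes (vertical), with the SE from limma as bars, for 4 null against 4 control libraries (left) and for the last 4 against the first 4 columns of the table (right). Genes called at an adjusted p under 0.05 are orange, with none on the left and Map2 alone on the right, whose difference of 0.24 is among the smallest and has the narrowest bar.

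Between the last and the first 4 columns, 1 of 26 neuron genes was called, while 5526 of 13600 genes (40.6%) were, with null or control as a covariate. The called gene was Map2, higher in the last 4 by 0.24 (SE 0.07, limma adjusted p = 0.0217); it was also the only neuron gene whose 2 sets of columns did not overlap, an order (last 4 above) seen in 12.5% of all genes with reads, while 13.3% had the last 4 below. Its adjusted p was 0.0588 without null 1 and without wild type 1, 0.0632 without null 3 and 0.0684 without heterozygote 2, so the call ended in each of these. The median difference of the 26 was 0.72, beside 0.00 over all tested genes, and 25 were above 0. Leaving out each library gave medians from 0.24 (without null 3) to 1.06 (without null 4). Over the 17 alternatives described below, the median ran from -0.06 to 1.06. The sign changed for 16 of 26 genes in some alternative, and for 3 when some library was left out. Stmn2 differed by 1.23 (SE 0.73, adjusted p = 0.207), Prph by 1.21 (SE 1.09), Ina by 1.15 (SE 0.88) and Sncg by 1.03 (SE 0.81), none of them called. Within the nulls, where both sets of columns hold the same genotype, 0 of 26 were called, beside 560 genes in all (4.12%), with 1 at an unadjusted p under 0.05 (32.1% of all tested genes), and the median was 0.74. Without null 3 this median was -0.11, with 5 of 19 genes above 0, and without null 4 it was 1.70. By limma's interaction term, 0 of the 13600 genes (0.0%) were called for a null effect differing between the 2 sets of columns. At an unadjusted p under 0.05 there were 128 of them (0.941%) and 0 neuron genes. The controls are wild types in the first 4 and heterozygotes in the last 4, so this term cannot be told apart from control genotype. With 2 libraries of each arm per set of columns, a lack of calls does not show a lack of difference.

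The spread between embryos of the same arm was itself large. The residual SD of the null against control fit had a median of 0.90 over the 26 neuron genes and 0.12 over all tested genes, on the log2 scale. Of the 26, 17 were in the top 1% of tested genes by this SD and 20 in the top 5%. Prph ranked 6 of 13600 with an SD of 1.93, Ina 11 and Sncg 14. Map2 ranked 3889 with 0.16 and Celf4 9410 with 0.09. Without null 3 the median SD was 0.65 over 19 neuron genes, without heterozygote 2 it was 0.79 over 19, and without these and wild type 2 it was 0.21 over 15. The 10 genes tested only through the high pair passed the filter by their levels in that pair, which favours a wide spread, so these counts are descriptions.

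Without null 3, wild type 2 and heterozygote 2, an alternative added after the data were seen, 15 neuron genes were tested and 0 were called between null and control, where 7 of 13391 genes were. Elavl4 then had a difference of -1.14 (SE 0.17, limma adjusted p = 0.166) and Tubb3 one of -1.01 (SE 0.24, adjusted p = 0.548). Among the 5 libraries left, wild type 1 and heterozygote 1 were both above each null in 5 of the 32 genes (Tubb3, Elavl3, Elavl4, Gap43 and Uchl1), and both below each null in 2 (Syt1 and Dcx). The first order was seen in 9.67% of all genes with reads and the second in 10.7%. Dropping these libraries leaves 3 nulls against 2 controls.

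The genes whose levels ran most nearly parallel were taken from the other tested genes by Pearson r, over the 8 libraries, with the mean z score of the 26 neuron genes. The 10 highest were P2rx3, Stmn4, Ppp1r1c, Scrt2, Syp, Prdm12, Map1b, Pirt, Nacad and Synm, with r from 0.997 to 0.985. Over the 6 libraries without null 3 and heterozygote 2, their r was between 0.940 and 0.997. The libraries are shared by all genes, the score is dominated by the same 3 libraries, and r is a description. P2rx3, an ATP-gated channel of sensory neurons, read 0.367, 0.463, 3.58 and 0.357 FPKM in null libraries 1 to 4. It read 0.242 and 1.62 FPKM in wild types 1 and 2, and 0.600 and 4.34 FPKM in heterozygotes 1 and 2. Prdm12, a transcription factor of pain-sensing neurons, read 2.87 FPKM in null 3 and 3.50 in heterozygote 2, and at most 0.416 in the other nulls. Map1b, a microtubule protein of growing axons, had the highest level of the 10, from 20.1 to 29.1 FPKM. Among the neuron genes themselves, Scn9a had the highest r with this mean (0.998, itself included in it) and Celf4 the lowest (-0.29).

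Other neuron genes were taken from lists by role. Of 24 transcription factors of sensory neurons in the table, 13 had null 3 and heterozygote 2 above the other 6 libraries, Isl1, Tlx3, Neurog1 and Pou4f3 among them. The order was found in 20 of 34 synaptic and secretory genes, 11 of 25 channels, 10 of 30 genes of axon and cytoskeleton, 6 of 23 genes of sensory neuron function, 2 of 11 RNA regulators and 1 of 9 neurotrophin receptors. Cpe, a carboxypeptidase that processes peptide hormones and the most abundant gene of the synaptic and secretory list, showed it within a range of 45.4 to 55.9 FPKM. The most abundant genes of other lists did not show it: Shox2 lay between 34.0 and 56.4 FPKM, Ngfr between 30.5 and 50.3, Tuba1a between 162 and 199, Cacnb3 between 29.4 and 39.0 and Rbfox2 between 61.3 and 69.5.

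Tested between null and control, these lists gave 2 called genes, both lower in the nulls. Cplx2, a complexin that binds the SNARE complex, fell from 26.9 ± 1.23 FPKM in the controls to 19.98 ± 0.841 in the nulls (SD, n = 4 each), a difference of -0.42 (SE 0.05, limma adjusted p = 0.0141). Each null was below each control, and the adjusted p stayed under 0.05 without any 1 library except wild type 1, where it was 0.0514. Fxyd7, a regulator of the sodium pump known from brain, fell from 26.8 ± 2.35 to 19.7 ± 1.11 FPKM, a difference of -0.43 (SE 0.07, adjusted p = 0.0427). Its call was lost without any of the 8 libraries in turn, with adjusted p from 0.0552 to 0.145. By list, 1 of 18 synaptic and secretory genes and 1 of 8 genes of sensory neuron function were thus called lower, and 0 were called higher, beside 0.419% of all tested genes in either direction. None were called of 15 sensory transcription factors, 9 neurotrophin receptors, 26 axon and cytoskeleton genes, 11 channels and 8 RNA regulators, with medians between -0.12 and 0.02, although 3, 2, 3, 1 and 3 of them had an unadjusted p under 0.05, as 7.15% of all tested genes did.

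Between the last and first 4 columns, 15 genes of these lists were called, 9 higher and 6 lower in the last 4. Of 15 sensory transcription factors, 4 were higher and 1 lower. Of 26 axon and cytoskeleton genes, 2 were higher and 2 lower, and of 11 channels 1 was higher and 2 lower. Of 8 RNA regulators 2 were higher, and of 9 neurotrophin receptors 1 was lower. The other 2 lists had 0. Over all tested genes 40.6% were called, a larger share than in each of these lists. Of the sensory transcription factors, Isl1, a LIM-homeodomain factor of sensory neurons, averaged 3.55 ± 0.307 FPKM in the first 4 and 5.81 ± 1.83 in the last 4 (0.60, SE 0.19, limma adjusted p = 0.0375). The call of Isl1 ended without any 1 library other than heterozygote 1 and null 4. Its difference was 0.48 without null 3 (adjusted p = 0.0975), 0.43 without heterozygote 2 (adjusted p = 0.0847) and 0.26 without these and wild type 2 (adjusted p = 0.124). Six4 and Shox2 were also higher by 0.27 and 0.25, and Eya2 was lower by 0.37. Kif5c, Dclk1, Cacna2d1, Nova1 and Ptbp2 were among those higher, and Ngfr, Tuba4a, Ncam1 and Cacnb3 among those lower. Ptbp2, a neuronal splicing regulator, showed the smallest SE, at 40.0 ± 2.05 FPKM in the first 4 and 51.1 ± 0.613 in the last 4. Of the 15, between 7 (without heterozygote 2) and 12 (without null 2) stayed called when 1 library was left out, and 9 without null 3. Without null 3, wild type 2 and heterozygote 2, 0 stayed called. A call can also end because fewer libraries are fitted, so a lost call does not show that a difference rests on the libraries left out. Ptbp2 stayed called when any 1 library was left out. Its difference was 0.35 with all 8 libraries and 0.34 without null 3, wild type 2 and heterozygote 2.

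A second set of neuron genes ran in another order. The list of autonomic neuron markers held 14 genes in the table, and in 5 of them, Dbh, Phox2a and Nos1 among these, each null was below each control, an order found in 3.12% of all genes. Of its 6 tested genes, 0 were called between null and control by limma (0.419% of all tested genes), 3 were lower at an unadjusted p under 0.05, and their median difference was -0.65. Against the 2 wild types alone, 1 of the 6, Dbh, was called lower (-1.46, SE 0.23, limma adjusted p = 0.0431; 0.382% of all tested genes were called), 4 were lower at an unadjusted p under 0.05 (11.6% of all), and the median was -0.95. Dbh, which makes noradrenaline, read 0.228, 0.157 and 0.297 FPKM in null libraries 1 to 3 and was lower still in null 4. It read 1.31 and 1.41 FPKM in wild types 1 and 2, and 0.899 and 0.367 FPKM in heterozygotes 1 and 2. Only the wild types thus reached the 1 FPKM needed for testing. Dbh was tested only through the group in which it was high, so its call against them is a description. Dbh averaged 0.183 ± 0.105 FPKM in the nulls and 0.997 ± 0.475 in the controls (adjusted p = 0.158). Heterozygote 2, the top library of most neuron genes, was the lowest control for Dbh.

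The calls in this set depended on single choices. Without heterozygote 2, Dbh would be called lower in the nulls (limma adjusted p = 0.0289), again tested through the wild types alone. Its call against the wild types ended without any 1 of the nulls (adjusted p between 0.0663 and 0.0958), and without either wild type it was below the level needed to be tested. Outside the autonomic list, the same order of all nulls below all controls was found in Runx3, Insm1 and Celf3, none of them called with all 8 libraries and no covariate. Without null 3, Celf3 (limma adjusted p = 0.0203) and Insm1 (adjusted p = 0.0471) would be called, and Runx3 would be with the position in the table as a covariate (adjusted p = 0.0362). Without null 3, Celf3 was tested through controls alone, the group in which it was high. Runx3, a runt-domain factor of sensory neurons, averaged 1.43 ± 0.149 FPKM in the nulls and 2.52 ± 0.417 in the controls (adjusted p = 0.0583). Insm1, a zinc-finger factor of neuroendocrine differentiation, averaged 0.957 ± 0.459 and 2.34 ± 0.265 FPKM (adjusted p = 0.0988). Celf3, a neuronal RNA-binding protein, averaged 0.592 ± 0.587 and 2.60 ± 0.564 FPKM (adjusted p = 0.0945). Ret, the receptor of glial cell line-derived factors, averaged 0.558 ± 0.462 and 1.87 ± 0.528 FPKM with overlapping groups (adjusted p = 0.161). These genes and their tests were singled out after their values were seen.

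**Figure D4:**
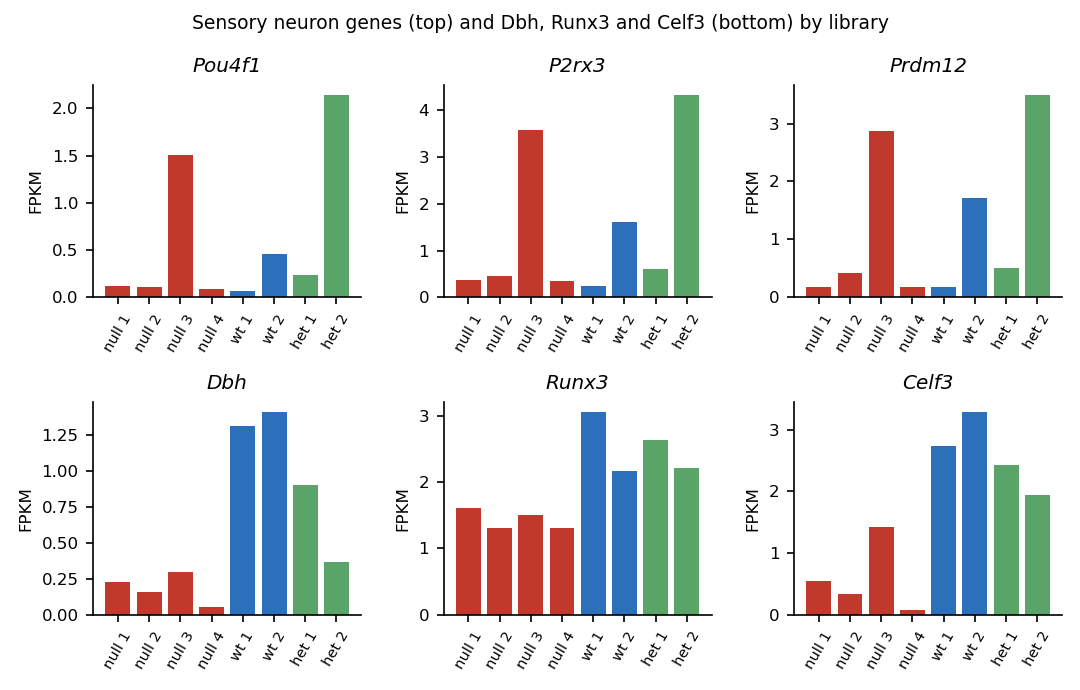
FPKM (vertical, linear from 0) of 6 genes in each of the 8 libraries (horizontal), with 1 bar per embryo and colour for genotype (red null, blue wild type, green heterozygote). Pou4f1, P2rx3 and Prdm12 are highest in null 3 and heterozygote 2, whereas for Dbh, Runx3 and Celf3 each null bar is below each control bar.

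Markers of other cell types were set beside these values. The order with null 3 and heterozygote 2 on top was found in 0 of 20 Schwann cell and glia markers, 0 of 24 skeletal muscle, 0 of 17 palatal mesenchyme, 0 of 17 epithelium, 0 of 13 endothelium, 0 of 12 macrophage and 0 of 11 erythroid markers, and in 0 of 16 central nervous system markers. It was found in 3 of 14 olfactory and vomeronasal markers, Gnal, Ebf3 and the neuron gene Gap43, and in 1 of 14 autonomic markers, Th, beside the 7.03% of all genes with reads. The summed FPKM of the neuron genes ran from 79.3 to 252 in the nulls and from 86.8 to 260 in the controls. The list for Schwann cells and glia, which surround axons and neuron bodies, summed to between 290 and 349 FPKM in the nulls and between 282 and 310 in the controls. Its most abundant gene was Postn. A sum follows the genes of highest FPKM, so this one does not measure glia alone. Sox10, a factor of neural crest and glia, was 14.3 FPKM in null 3 and 13.3 in heterozygote 2, within the range of 13.8 to 25.9 of the other 6 libraries or below it. Forebrain markers were near 0: Gad1 was at most 0.116 FPKM, Pax6 at most 0.0731 and Tbr1 at most 0.0491 in any library. Omp, the marker of mature olfactory neurons, was at most 0.0981 FPKM. Skeletal muscle markers summed to between 125 and 525 FPKM in the nulls and between 110 and 345 in the controls, with null 1 and null 2 highest, and 22 of 23 tested were called lower in the last 4 columns. The part of muscle, glia or any other tissue in the neuron values was not tested.

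**Figure D5:**
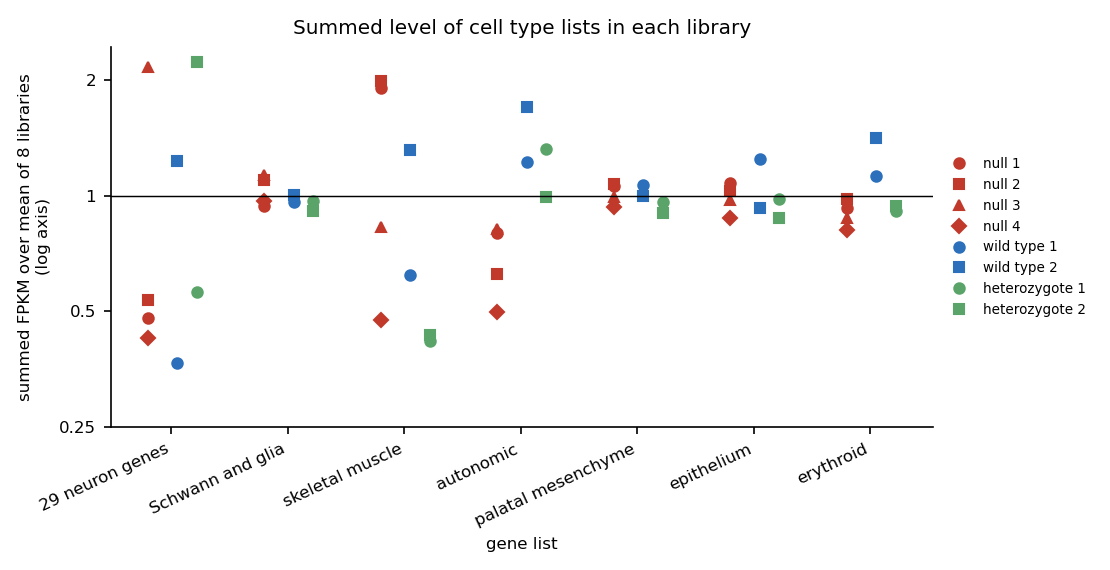
Summed FPKM of each marker list divided by its mean over the 8 libraries (vertical, log axis) for 29 neuron genes (without the 3 of highest FPKM) and 6 other lists (horizontal), with 1 point per library. The neuron genes span 0.367 to 2.23 times their mean with null 3 and heterozygote 2 on top, skeletal muscle spans 0.417 to 2.00 in another order, and palatal mesenchyme spans 0.904 to 1.08.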

How the data were processed

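Messenger RNA of palatal shelves was sequenced from 8 embryos (4 null, 2 wild type, 2 heterozygote). Per the labels' protocols, shelves were dissected under a microscope, and libraries were made with a TruSeq v2 kit after oligo(dT) selection, which does not mark strand. Per the submitters' processing notes, Novoalign 2.08.03, the genome build mm10 and DESeq2 (no version) were used. Which counting program and annotation made the counts was not given in the sources used here. FPKM values, which the authors deposited for 19083 genes, were scaled by gene length and by reads assigned to genes; 0 columns belonged to other samples. All 19083 genes came out as whole reads in every library (tolerance 0.03 of a read), which gave the depths of 37069101 to 51210254 reads. Symbols and positions came from GENCODE M21 on GRCm38, with 331 identifiers unmatched.

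Genes with FPKM of at least 1 in at least 2 libraries were tested with limma 3.58.1 in R 4.3.3 on log2(FPKM + 0.5), with a mean-variance trend and two-sided p-values. Contrasts were null against control, null against each control genotype in a fit of 3 groups, last against first 4 columns with null or control as covariate, and their interaction. The procedure was tested on simulated data for null against control, over 13600 genes, and recovered 95% of changes of 1 and 99% of changes of 2 on the log2 scale. The changed genes were drawn from all tested genes, each with its own residual SD, whose median was 0.12. For the 26 tested neuron genes this median was 0.90, so the recovered shares do not hold for them. Having 0 calls among them does not show that changes of this size were absent. Summaries used Python 3.11.15 with pandas 2.3.3 and figures matplotlib 3.10.9. Exact Poisson intervals (95%) and the floor of 3 reads cover counting error only.

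Values in each library are given for the 8 neuron genes of highest mean FPKM, the 4 of largest difference between null and control, the 4 of largest difference between the sets of columns, and every neuron gene called; others are given by range. The neuron genes, the lists and this rule were chosen with earlier results of these data known. Alternatives were other pseudocounts, filters and scalings, a block on the number in the sample title, the position in the table as a covariate, leaving out each library, and 4 added after the data were seen: leaving out null 3, wild type 2 and heterozygote 2, a covariate of the mean level of Prdm12, Tlx3, Pou4f3, P2rx3, Avil, Scn10a and Isl1, the same covariate with 1 more gene, and limma's voom on the recovered reads. Some genes of the lists are not reported here, and 1 of them, the further gene of the covariate, was taken out of it after its results were seen.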

Additional observations from a re-analysis of the deposited data

Results flagged for a closer look

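In groups of 4 libraries, a library was marked when its gap to the nearest other was a larger share of the group's range than Dixon's 95% critical value. For normally distributed values, chance gives this in about 1 of 20 groups. Of 64 groups (32 genes in nulls and in controls), 21 were marked, in 19 genes. The genes are not independent, since the same library stands apart in most. The share of all genes marked by this rule is not given here, so the count is a description. In 19 of the 21 marked groups null 3 was the high library among the nulls. The values of null 3 were 1.66 FPKM for Nhlh1, 1.02 for Nhlh2, 1.08 for Neurod1 and 1.51 for Pou4f1 among the transcription factors. They were 2.70 FPKM for Elavl3 and 3.10 for Elavl4 among the Hu proteins. For the axon skeleton they were 25.7 FPKM for Tubb3, 16.7 for Stmn2, 8.37 for Stmn3, 20.6 for Nefl, 18.6 for Nefm, 7.63 for Ina, 17.2 for Prph and 3.23 for Mapt. For synapse, membrane and channel genes they were 0.973 FPKM for Snap25, 1.09 for Syt4, 23.7 for Sncg, 5.33 for Rtn1 and 1.74 for Scn9a. Among the controls, heterozygote 2 was marked for Nhlh2 at 1.78 FPKM and for Neurod1 at 1.67 FPKM; in the other genes wild type 2 lay closer to it. The cause of the high values was not tested.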

How the results depend on the processing

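Between null and control, 0 neuron genes were called under any of 19 alternatives, with a lowest adjusted p of 0.0791 (limma) and medians from -0.65 without null 3 to 0.00 without heterozygote 2. The sign of the difference changed for 9 of 26 genes when some library was left out. With voom on the recovered reads, 65 genes were called in all and 0 neuron genes. With the replicate block (44 or 56 in the sample titles, whose meaning the labels do not give), 0 neuron genes were called between null and control and 1, again Map2, between the sets of columns. The count of 1 for last against first 4 columns became 0 with a mean FPKM of at least 5, a filter that removes Map2 itself. It was also 0 without null 3, wild type 2 and heterozygote 2. Leaving out each library gave between 0 and 4. The count was 0 without null 1, wild type 1, null 3 or heterozygote 2. Without heterozygote 1 it was 4 (Map2, Elavl2, Nhlh2 and Neurod1). Nhlh2 and Neurod1 were tested only through null 3 and heterozygote 2, both in the last 4 columns, so their calls are descriptions. With all 8 libraries, 40.6% of all tested genes were called. In the interaction fit, leaving out null 3, wild type 2 and heterozygote 2 makes null 4, wild type 1 and heterozygote 1 each the only library of its arm in its set of columns. The interaction for Prph was then -3.15, an effect size that rests on single embryos. With the mean of 7 sensory genes as covariate, the last against first differences turned negative for Prph (-0.52), Ina (-0.32) and Sncg (-0.31), and 2 genes, Nefl (-0.45, adjusted p = 0.0175) and Nefm (-0.44, adjusted p = 0.0340), were called in place of Map2, beside 26.7% of all tested genes; with 1 more gene in the covariate, as first run, these differences were -0.35, -0.17 and -0.17 and Nefl alone was called. That covariate takes out the order shared with the neuron genes by construction, so the calls made with it are descriptions. The highest over lowest summed level moved from 3.28 to 6.09 without the 3 genes of highest FPKM. Causes were not tested. Reads limit the low genes: 5 neuron genes had fewer than 10 reads in some library.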

Other observations

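The mean level of 7 sensory ganglion genes, chosen as a covariate after the data were seen, ran with the neuron genes across the libraries (P2rx3, a member of it, had r = 0.997 with their mean). A fit with it takes out that shared order by construction and shrinks the SE, for Elavl3 from 0.60 without it to 0.13 with it. Its median, its p-values and its count of genes under 0.05 are therefore descriptions and say nothing of null against control. In this fit no neuron gene was called, and 5 of 26 had an unadjusted p under 0.05 by limma (7.14% of all tested genes did). Dcx was higher in the nulls by 0.44 (SE 0.08, adjusted p = 0.0791). Tubb3 was lower by 0.78 (SE 0.22, adjusted p = 0.326), Elavl3 by 0.50 (SE 0.13, adjusted p = 0.240), Elavl4 by 0.81 (SE 0.16, adjusted p = 0.128) and Uchl1 by 0.23 (SE 0.08, adjusted p = 0.488), all on the log2 scale. The neurofilament genes Nefl and Nefm, and Prph, were not among them.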
